A study of Mus musculus with 168 samples.

Results

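The 7 genes described here, Klrg1, Klrb1a, Klrb1c, Klrb1f, Klrd1, Klrk1 and Ncr1, encode receptors of natural killer (NK) cells and were measured in mice given a Janus kinase (JAK) inhibitor. They were found by gene symbol among 19752 genes of the array annotation, and each had 1 probe set (10547590, 10548286, 10548307, 10542140, 10542214, 10548345 and 10549647 in that order). Male C57BL/6 mice aged 6 weeks received a compound or a vehicle by gavage. Sorted immune cells were lysed, and each of 168 Affymetrix Mouse Gene 1.0 ST arrays held RNA of 1 cell type from 1 tissue. Compounds carry only code names, no dose is stated in the labels, and the experiment is the number that opens an array's title (J2, J3, J6, J8 or J25 for the arrays described in detail). All levels are log2 of the deposited intensity, on which array medians lay between 6.9 and 7.15, and a level of one gene cannot be set against that of another.

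Spleen NK cells, sorted as NK1.1+, were on 27 arrays. Of these, 3 came from the plain vehicle (0.5% MC), 7 from SB00526221, 5 from SB00526222, 4 from SB00526226 and 3 from SB00526228, all after 14 or 15 treatments and 14 to 17 h after the last, which is called prolonged here. The other 5 NK arrays were taken 4 h after the last of 3 treatments, 2 with SB00526221, 1 with SB00526222 and 2 with SB00526226, all in J2. Spleen CD4+ T cells (T4) were on 39 arrays: 11 in J2, 2 in J3, 2 in J6, 12 in J8 and 12 in J25. The T4 arrays of J2, J3, J6 and J8 were drawn from the same compounds and schedules, with 0.5% MC at pH 3 as a second vehicle. Those of J25 had SB00513404, SB00526222 or plain vehicle. They were taken 18 h after 14 or 28 treatments, also called prolonged here, or 3 or 18 h after a single treatment. Flt3+ dendritic cells (DC, 20 arrays), Ly6G+ granulocytes (GN, 16), F4/80+ spleen macrophages (MF, 33) and peritoneal macrophages (33) served for the comparison of cell types. The pH 3 vehicle was on T4, GN and spleen MF arrays but on no NK array. Every compound in NK cells, SB00526226 included, was therefore set against the plain vehicle only. Arrays of an experiment whose titles carry the same number were counted as 1 animal, for 80 animals in all. Nothing else says which samples are separate animals, so a p-value reflects only how these samples spread. In bulk RNA of sorted cells, fewer cells of a type and less RNA per cell cannot be told apart.

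Natural killer cells read target cells through a balance of germline-encoded activating and inhibitory receptors. Many of these are C-type lectin-like proteins of the Klr genes, which sit together in the NK gene complex, whereas Ncr1 encodes NKp46, an activating receptor of the immunoglobulin superfamily. Interleukin-15, which signals through JAK1, JAK3 and STAT5, keeps NK cells alive, and Klrg1 appears late in their maturation and also marks some effector T cells.

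Promoter sequence was taken from RefSeq (GRCm38.p6), which held windows for 5 of the 7 genes, Klrb1a, Klrb1c, Klrb1f, Klrk1 and Ncr1. The windows of Klrb1a, on the minus strand at chr6:128622935-128623184, and of Klrb1c, on the minus strand at chr6:128788642-128788891, are shown because Klrb1a was called between schedules and its close paralogue Klrb1c was not. Capitals mark bases that differ between both or lie in a gap of the other.

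Klrb1a: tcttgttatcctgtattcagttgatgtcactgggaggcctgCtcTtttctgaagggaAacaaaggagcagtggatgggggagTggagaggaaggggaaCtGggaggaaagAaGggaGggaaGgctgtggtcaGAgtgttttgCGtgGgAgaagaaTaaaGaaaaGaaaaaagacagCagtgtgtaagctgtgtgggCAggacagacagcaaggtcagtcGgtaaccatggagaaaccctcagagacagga
Klrb1c: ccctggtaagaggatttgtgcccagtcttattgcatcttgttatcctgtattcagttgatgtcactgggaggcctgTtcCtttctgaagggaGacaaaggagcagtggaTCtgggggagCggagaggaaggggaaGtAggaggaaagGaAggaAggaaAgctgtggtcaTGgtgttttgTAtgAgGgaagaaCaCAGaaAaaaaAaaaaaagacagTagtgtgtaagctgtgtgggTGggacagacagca

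The alignment used windows of 300 bases, 250 before the start and 50 after it, and only the 250 before are shown. Over 265 aligned columns 236 were identical (89.1%), 24 were substituted and 5 lay in 2 gaps. The Klrb1c window started 35 bases before the aligned part. The probes of such close paralogues can share target sequence, which was not checked, so the values of Klrb1a and Klrb1c are uncertain to that extent. The letters TGTGGT or ACCACA on the other strand, the core that RUNX factors bind, were found in 4 of the 5 windows of 300 bases, against 16.8% of 32851 promoter windows of that length. They lay 126 bases before the start of Klrb1a, 89 before Klrb1c and 129 before Klrk1, and at 176 and, on the other strand, 41 bases before Ncr1. Those of Klrb1a and Klrb1c lie in the same aligned stretch, so the 5 windows are not independent and the count is a description. Klrb1f held none of these but had the STAT letters TTCNNNGAA 5 bases before its start (8.3% of promoters). The T-box letters AGGTGTGA or TCACACCT were in 0 of 5 (1.28% of promoters). These matches describe letters and not binding. The windows of Klrk1 (minus strand, chr6:129623865-129624114) and Ncr1 (plus strand, chr7:4337465-4337714) show the RUNX letters in capitals.

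Klrk1: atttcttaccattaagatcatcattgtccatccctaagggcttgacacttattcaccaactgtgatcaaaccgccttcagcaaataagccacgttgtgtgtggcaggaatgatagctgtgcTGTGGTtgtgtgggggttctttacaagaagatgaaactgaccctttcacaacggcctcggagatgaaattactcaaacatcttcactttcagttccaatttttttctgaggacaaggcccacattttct
Ncr1: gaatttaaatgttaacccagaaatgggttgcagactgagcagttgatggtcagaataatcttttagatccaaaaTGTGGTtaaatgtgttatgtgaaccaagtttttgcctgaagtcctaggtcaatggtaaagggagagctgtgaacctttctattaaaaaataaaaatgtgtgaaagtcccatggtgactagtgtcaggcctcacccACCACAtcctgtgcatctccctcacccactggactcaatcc

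The sorted populations carried their own markers in most cases. Adgre1, which encodes F4/80, averaged 12.72 in spleen MF, Flt3 11.74 in DC, Ly6g 13.03 in GN and Cd3e, part of the T cell receptor complex, 12.56 in T4. The adhesion molecule gene Vcam1, high in red pulp macrophages, averaged 5.99 in arrays labelled spleen MF, below the array medians. Arrays whose median correlation with their cell type was low numbered 4 in NK (SB00526228 prolonged replicate 3, SB00526226 at 4 h replicate 1, SB00526221 prolonged replicate 5 and SB00526226 prolonged replicate 4) and 4 in T4, all of J8 (vehicle replicate 6, SB00526226 replicate 1, SB00526222 replicate 5 and vehicle at pH 3 replicate 3). One T4 array of J2, SB00526228 replicate 1, had granulocyte markers at a mean of 10.17 and Flt3 at 9.46.

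All 7 receptor genes were at their highest in NK cells, and the order of the other cell types differed from gene to gene. Ncr1, whose product NKp46 defines NK cells and related innate lymphocytes, averaged 13.38 ± 0.15 (SD, n = 27) in NK cells with a range of 13.07 to 13.61. Elsewhere it averaged 6.08 ± 0.58 in DC, 5.41 ± 0.3 in GN, 5.05 ± 0.31 in T4, 4.98 in spleen MF and 4.89 in peritoneal macrophages, so these means were all below the array medians. No array of another cell type overlapped the NK arrays for this gene. Klrb1c encodes NK1.1, the antigen by which the NK cells were sorted, so its NK level of 12.09 ± 0.27 is what the gate selects. Its paralogue Klrb1a, which encodes NKR-P1A, averaged 10.87 ± 0.52 in NK. The other cell types had means of 4.01 to 4.63 for it and overlapped.

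The inhibitory receptor gene Klrg1 averaged 10.6 ± 0.64 in NK and 8.05 ± 1.37 in T4, with NK values of 9.15 to 11.68 that overlapped the highest T4 arrays. In DC, GN and both macrophage populations it lay between 5.62 and 5.92 on average and those neighbours overlapped. Klrd1 encodes CD94, which pairs with NKG2 chains and sees the MHC class Ib molecule Qa-1. It averaged 12.14 ± 0.37 in NK, 10.74 ± 0.39 in DC and 7.95 ± 0.67 in T4, and at most 5.17 in the other cell types. Klrb1f, an activating member of the NKR-P1 family, had the same order with 12.85 ± 0.23 in NK, 10.68 ± 0.3 in DC and 8.19 ± 1.19 in T4, followed by 7.18 ± 0.75 in GN, which overlapped T4. Klrk1, which encodes the activating receptor NKG2D, averaged 11.66 ± 0.2 in NK, 8.13 ± 0.42 in DC and 6.21 ± 1.38 in T4, the last with a range that overlapped DC.

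**Figure D1:**
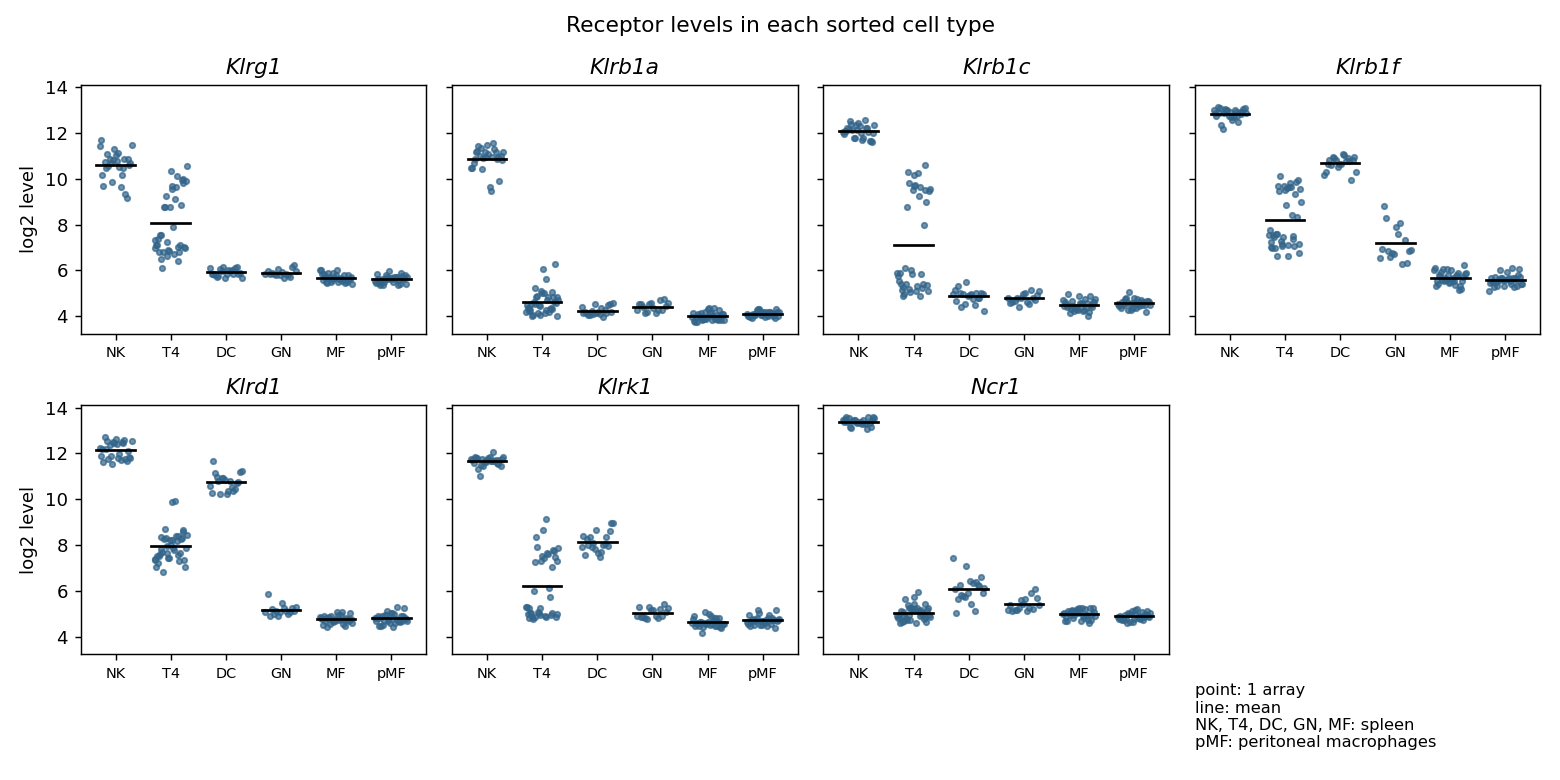
Levels of the 7 receptor genes (log2 intensity, y axis) in each sorted cell type (x axis), with 1 point per array and a line at the mean. Ncr1 and Klrb1a stand apart in NK cells, Klrb1f, Klrd1 and Klrk1 are next highest in DC by mean, and the T4 points of Klrg1, Klrb1c and Klrk1 fall into separate clusters.

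In vehicle arrays alone, NK cells exceeded each other spleen cell type in 7 of 7 receptor genes. Of all 12492 genes tested in this fit, 13.4% were called in NK against T4, 33.1% against DC, 61.8% against GN and 36.6% against MF (limma, Benjamini-Hochberg adjusted p under 0.05). Those higher in NK numbered 784, 2294, 4662 and 2086 genes in the same order. The count over the receptors is a description, because Klrb1a and Ncr1 passed the filter on low values only through the NK arrays and had to differ. The NK excess over T4 was 2.2 (SE 0.37, adjusted p = 5.20e-05 by limma) for Klrg1, between 3.93 and 6.21 for the other Klr genes, and larger still for Ncr1 (adjusted p = 1.18e-21). The Klrg1 value moved to 1.42 without the J2 vehicle T4 array (prolonged replicate 1), still called (adjusted p = 1.13e-04 by limma), and it averages over T4 experiments whose Klrg1 levels differed, as described with the T4 arrays. Against DC the smallest difference was that of Klrd1, 1.37 (SE 0.19, adjusted p = 8.67e-07 by limma) or 2.58-fold. Klrb1f was 2.35 (SE 0.41) and Klrk1 3.34 (SE 0.26) above DC. In the same DC arrays Klrb1c stayed between 4.24 and 5.02 and Klrb1a at 4.57 or below, near their levels in macrophages.

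In NK cells after prolonged treatment, the question was whether days of JAK inhibition change the receptors of cells that depend on interleukin-15. None of the 7 genes passed, and Klrg1 had the lowest p. Its vehicle arrays stood at 10.62 and 10.69 in J2 and 11.47 in J6. With SB00526221 the 7 arrays ran from 9.7 through a median of 10.56 to 11.07, and with SB00526222 the 5 arrays were 9.85 in J2, 10.83 and 11.32 in J3, and 11.05 and 10.8 in J8. The SB00526226 arrays were 9.63 in J2 and 10.17, 10.47 and 10.88 in J8, and the SB00526228 arrays, all of J2, were 9.34, 9.15 and 10.85. Within J2, 6 of 7 inhibitor arrays were below both vehicle arrays and 1 was above, and within J6 both inhibitor arrays were below the vehicle array, whereas J3 and J8 held no vehicle NK array.

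With the experiment fitted, Klrg1 in prolonged inhibitor arrays differed from vehicle by -0.86 (SE 0.25, 95% interval -1.37 to -0.35, 1.81-fold lower), with an unadjusted p of 0.00209 and an adjusted p = 0.997 by limma. In this comparison 0% of 10957 genes were called, and 418 had an unadjusted p under 0.05. The difference was -0.84 in J2 (means 9.82, n = 7, and 10.66, n = 2) and -0.86 in J6. Klrg1 was the only gene called (of 10828) without the 4 arrays standing apart, a setting added after the data were seen, at -0.9 (adjusted p = 0.0476 by limma). The other 6 receptors lay between -0.07 and 0.07. The intervals were -0.41 to 0.27 for Klrb1a and -0.29 to 0.16 for Ncr1.

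By compound, Klrg1 differed from the same 3 vehicle arrays by -0.78 (SE 0.26) with SB00526221, -0.75 (SE 0.32) with SB00526222, -1.1 (SE 0.31) with SB00526226 and -0.9 (SE 0.31) with SB00526228. None of the 28 comparisons of a receptor and a compound passed (limma, 0% of genes called for the first 3 compounds and 0.0456% for SB00526228, where Klrg1 had adjusted p = 0.457). The SB00526228 value turned on 1 array. Replicate 3, one of those standing apart, had Klrg1 at 10.85 and Klrb1a at 9.92, against 10.87 and 10.94 for Klrb1a in its other arrays. Without it Klrg1 was at -1.44 and called (adjusted p = 0.00672 by limma). Its dendritic cell markers, at 7.29, were the lowest of the J2 NK arrays.

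The 4 compounds form 6 pairs, compared at the prolonged schedule with the experiment fitted, since the labels give no dose. Of the 42 differences of a receptor between 2 compounds, 0 passed (limma, 0% to 0.0183% of genes called by pair). The smallest p belonged to Klrk1, 0.34 higher with SB00526226 than with SB00526221 (95% interval 0.06 to 0.62), with an unadjusted p of 0.0211 and an adjusted p = 0.127 over the 6 pairs (limma). Klrg1 with SB00526226 lay at -0.32 relative to SB00526221 (interval -0.82 to 0.17) and at -0.36 relative to SB00526222 (interval -0.93 to 0.21). SB00526222 and SB00526221 differed in Klrg1 by 0.04 (interval -0.5 to 0.57), an interval that takes in differences of that size in either direction.

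**Figure D2:**
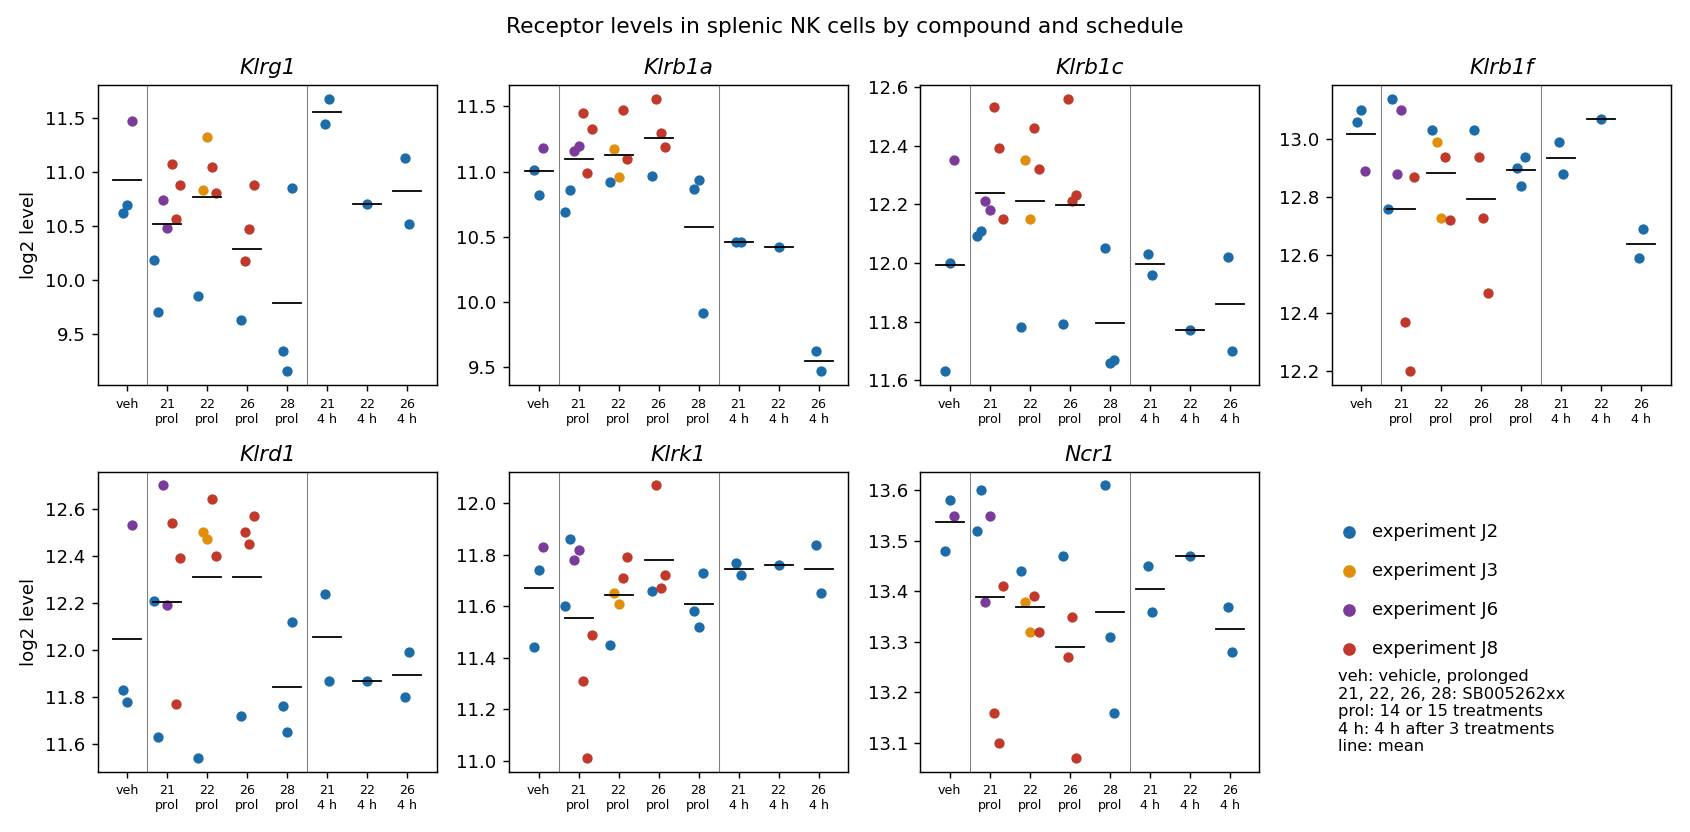
Levels of the 7 receptor genes (log2 intensity, y axis, own range per gene) in NK arrays by compound and schedule (x axis), 1 point per array coloured by experiment and a line at the mean. Within J2, Klrg1 at 4 h after 3 treatments (10.52 to 11.68) lies above the prolonged arrays of the same compounds (9.63 to 10.18), and Klrb1a at 4 h (9.47 to 10.46) lies below them (10.69 to 10.97).

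At 4 h after the last of 3 treatments, Klrb1a was lower than in vehicle without passing over all compounds. Its 5 arrays stood at 10.46 and 10.46 with SB00526221, 10.42 with SB00526222 and 9.63 and 9.47 with SB00526226, and its vehicle arrays at 11.01, 10.82 and 11.18. All 5 were below the vehicle arrays, with no overlap. Ncr1 did not overlap in J2 either, at a difference of only -0.15, and the share of all genes without overlap was not counted. The difference was -0.81 (SE 0.18, adjusted p = 0.0735 by limma), in a comparison that called 0.119% of genes, and -0.83 in J2 alone. Klrb1a passed without the arrays standing apart (-0.69, adjusted p = 0.0257 by limma) and after quantile normalization (adjusted p = 0.0451 by limma).

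With SB00526226 alone at 4 h, Klrb1a fell by 1.35 (SE 0.22, 2.55-fold, adjusted p = 0.00972 by limma), 1 of 7 receptors where 0.0639% of genes were called. The call rested on few arrays: it was lost without vehicle replicate 1 (-1.27, adjusted p = 0.144), without either SB00526226 array at 4 h (-1.43, adjusted p = 0.182, and -1.27, adjusted p = 0.346) and in J2 alone (-1.37, adjusted p = 0.0605, all by limma). Klrb1a lay at -0.44 with SB00526221 and -0.48 with SB00526222, neither called (0.0639% and 0.00913% of genes called). Both SB00526226 arrays at 4 h also had higher macrophage markers, at means of 7.22 and 7.26 against 6.14 to 6.62 in the vehicle arrays, and the part of this in the Klrb1a value was not tested. Over all compounds at 4 h, Klrg1 lay 0.42 above vehicle (SE 0.28, adjusted p = 0.613 by limma). No vehicle NK array was taken at 4 h after 3 treatments, so compound, hour and number of treatments cannot be told apart here.

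Between the schedules, Klrg1 and Klrb1a were both called, in opposite directions. Hours since the last treatment and number of treatments differ together between these schedules and cannot be told apart. At 4 h, Klrg1 was 2.4-fold higher than in prolonged arrays of the same 3 compounds, a log2 difference of 1.27 (SE 0.23, 95% interval 0.78 to 1.75, adjusted p = 0.00511 by limma). Klrb1a was 1.72-fold lower, a difference of -0.79 (SE 0.15, interval -1.11 to -0.47, adjusted p = 0.00859 by limma). These were 2 of 7 receptors, in a comparison that called 1.42% of genes, 48 higher and 108 lower. Both schedules were present only in J2, where Klrg1 averaged 11.1 (n = 5) at 4 h and 9.84 (n = 4) after prolonged treatment and Klrb1a averaged 10.09 and 10.86. The groups did not overlap in J2 for either gene, though the share of all genes without overlap was not counted. Macrophage markers moved with this contrast: in J2 their mean ran from 6.49 to 7.26 at 4 h and from 6.27 to 6.33 in the prolonged arrays of the same compounds, with 0 of 6 called and a median difference of 0.74. Their part in the result was not tested.

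In J2 alone neither call passed (Klrg1 1.26, adjusted p = 0.0541, and Klrb1a -0.77, adjusted p = 0.0626, by limma). The Klrg1 call was also lost without the experiment term (0.56, adjusted p = 0.147), and the Klrb1a call without either SB00526226 array at 4 h (-0.67, adjusted p = 0.0549, and -0.63, adjusted p = 0.0747). The other 5 receptors did not pass. Klrd1 was at 0.18 (interval -0.15 to 0.51), Klrk1 at 0.09, Klrb1c at -0.01, Ncr1 at -0.12 and Klrb1f at -0.19. The intervals were -0.26 to 0.25 for Klrb1c, the NK1.1 gene, and -0.33 to 0.09 for Ncr1.

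**Figure D3:**
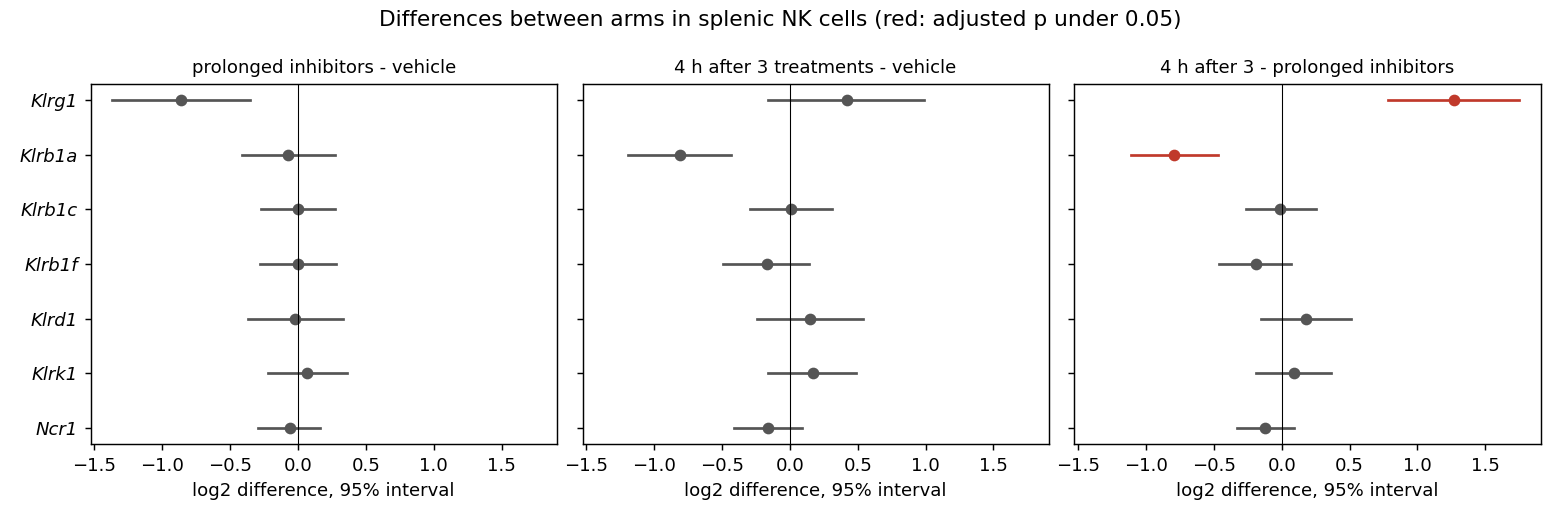
Fitted log2 differences with 95% intervals (x axis) for the 7 receptor genes (y axis) in 3 NK comparisons, with those of adjusted p under 0.05 in red. Klrg1 at 1.27 and Klrb1a at -0.79 are called between schedules, and no receptor is called against vehicle over all compounds.

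Other genes of the receptor system were read in the same contrast of schedules. Of 12 other Klr and Ly49 receptor genes tested, 0 passed, with a median of 0.18, and Klrb1, another NKR-P1 gene, had the largest statistic at 0.26 (adjusted p = 0.498 by limma). All genes tested had a median of 0.01. Of 14 other NK receptors, 1 was higher and 3 lower at 4 h, with a median of -0.26. Fcgr3, which encodes the Fc receptor CD16, rose by 0.64 (adjusted p = 0.0368), while Tnfrsf9, the costimulator 4-1BB, was at -0.92 (adjusted p = 0.00583) and the inhibitory receptor gene Lilrb4a at -0.8 (adjusted p = 0.0377). Among 18 adaptor and signalling genes 0 passed, the phosphatase gene Ptpn6 coming closest at -0.32 (adjusted p = 0.109).

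Of 10 genes of late NK maturation (median 0.34), 1 was higher and 1 lower at 4 h: the integrin gene Itgam at 0.96 (adjusted p = 0.00129) and the granzyme gene Gzmb at -0.82 (adjusted p = 7.41e-04, limma). Of 13 genes of early maturation (median -0.29), the chemokine gene Xcl1 was lower at -0.92 (adjusted p = 0.0145). Among 15 NK transcription factors Prdm1, which encodes Blimp-1, rose by 0.6 (adjusted p = 0.00495). The list of the interleukin-15 receptor, its signalling and the interleukin-12 and interleukin-18 receptors had 0 of 9 genes called, and the ligands of the receptors 0 of 3, where Clec2d, the ligand of an NKR-P1 receptor, was at -0.25. None of these lists had a gene called for all prolonged inhibitors against vehicle, and at 4 h against vehicle the late maturation list alone had one, Gzmb at -1.03 (adjusted p = 4.93e-04 by limma).

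Receptor levels also varied between experiments within NK cells. In prolonged inhibitor arrays Klrg1 averaged 9.82 (n = 7) in J2, 11.07 (n = 2) in J3, 10.61 (n = 2) in J6 and 10.73 (n = 8) in J8. Klrb1a averaged 10.74, 11.06, 11.18 and 11.3 in the same order. The means that follow take all arrays of an experiment, those at 4 h in J2 included. Klrd1 averaged 11.86 ± 0.21 (SD, n = 14) in J2 and 12.41 ± 0.27 (SD, n = 8) in J8, with 12.48 in J3 and 12.47 in J6. Klrb1c averaged 11.88 ± 0.18 in J2 and 12.36 ± 0.15 in J8, whereas Klrb1f averaged 12.93 ± 0.16 and 12.66 ± 0.28. The experiments held different compounds, and no test of experiments was made in NK cells. Dendritic cell markers moved with the experiment too, at means of 7.29 to 9.16 in the J2 arrays and 6.79 to 7.32 in the others, and their part in these levels was not tested. T cell markers ran from 7.5 to 8.39 in NK arrays, against 11.01 to 11.58 in T4 arrays.

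The genes most like each receptor over the 27 NK arrays were found by Pearson r. The arrays share experiments, so each r over all arrays is followed by r within J2 (n = 14) and then within J8 (n = 8). For Klrg1 they were Kcnj8, a potassium channel subunit (0.875, 0.89 and 0.89), H1f2, a linker histone (0.837, 0.9 and 0.38), and Cma1, a chymase (0.837, 0.86 and 0.65). For Klrb1a they were Psmg2, a proteasome assembly chaperone (0.928, 0.94 and 0.81), Minpp1 (0.882, 0.96 and 0.31) and Degs1 (0.87, 0.79 and 0.65). Klrd1 was nearest to Rheb, an activator of mTORC1 (0.919, 0.71 and 0.87), Cd48, the ligand of the NK receptor 2B4 (0.909, 0.72 and 0.85), and Tmem9b (0.891, 0.67 and 0.63).

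Klrb1f was nearest to the transcription factor gene Rfx7 (0.943, 0.88 and 0.95), Med14, a Mediator subunit (0.927, 0.87 and 0.97), and Dnm1l, which divides mitochondria (0.921, 0.81 and 0.95). Ncr1 was nearest to the kinase gene Wnk1 (0.811, 0.52 and 0.94), the Ras regulator Nf1 (0.8, 0.63 and 0.93) and again Rfx7 (0.798, 0.57 and 0.88). Klrk1 was nearest to Ggnbp2 (0.804, 0.61 and 0.87), Zfp825 (0.787, 0.46 and 0.87) and Tax1bp1 (0.785, 0.65 and 0.85). Klrb1c was nearest to Emc6 (0.846, 0.45 and 0.4), Lsm3 (0.818, 0.44 and 0.22) and Creld2 (0.81, 0.21 and 0.77). Within J8, r was under 0.5 for H1f2, Minpp1, Emc6 and Lsm3.

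In CD4+ T cells Klrb1c, Klrg1 and Klrk1 were higher in J3, J6 and J8 than in J2 and J25 with no overlap. The other receptor genes overlapped. How many of all genes split without overlap was not counted, and 46.2% of genes were called between J8 and J2 (limma, adjusted p under 0.05). The split is therefore a description and does not set the receptors apart from other genes. Klrb1c, the NK1.1 gene, ran from 4.89 through a median of 5.17 to 6.09 in the 11 arrays of J2, and from 5.1 through 5.39 to 5.91 in the 12 of J25. It stood at 9.51 and 7.99 in J3 and at 8.77 and 9.51 in J6, and ran from 8.98 through 9.71 to 10.59 in the 12 arrays of J8. J2 and J25 overlapped each other and neither overlapped J3, J6 or J8, and in J2, J8 and J25 the vehicle arrays overlapped the inhibitor arrays.

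Klrg1 showed the same order. It ran from 6.12 through 6.79 to 7.56 in J2 and from 6.82 through 7.1 to 7.91 in J25, against 8.76 and 8.85 in J3, 8.75 and 9.96 in J6, and 8.79 through 9.77 to 10.55 in J8. Klrk1, the NKG2D gene, ran from 4.78 through 5 to 6.14 in J2 and from 4.81 through 5.03 to 5.3 in J25, and stood at 7.3 and 7.06 in J3, 7.24 and 7.79 in J6, and 7.3 through 7.69 to 9.12 in J8. Neither gene had an overlap between J2 or J25 on one side and the other 3 experiments on the other.

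Klrb1f and Klrd1 also had higher means in J3, J6 and J8 but overlapped. Klrb1f ran from 6.61 through 7.15 to 8.42 in J2 and from 6.98 through 7.31 to 7.77 in J25, against 9.68 and 9.35 in J3, 9.7 and 9.85 in J6, and 8.33 through 9.59 to 10.13 in J8. The J2 array at 8.42 was the SB00526228 array with granulocyte and dendritic cell markers, which also had the highest Klrd1 (8.41) and Klrk1 (6.14) of J2. Klrd1 averaged 7.69 ± 0.48 in J2, 7.44 ± 0.22 in J25, 8.6 ± 0.65 in J8 and between 8.22 and 8.29 in each array of J3 and J6. Its highest T4 values, 9.91 and 9.88, were both in J8 arrays that stand apart. Ncr1 stayed between 4.58 and 5.93 in all T4 arrays, and Klrb1a had means of 4.25 in J2, 4.36 in J25 and 5.12 ± 0.55 in J8, so both remained below the array medians.

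**Figure D4:**
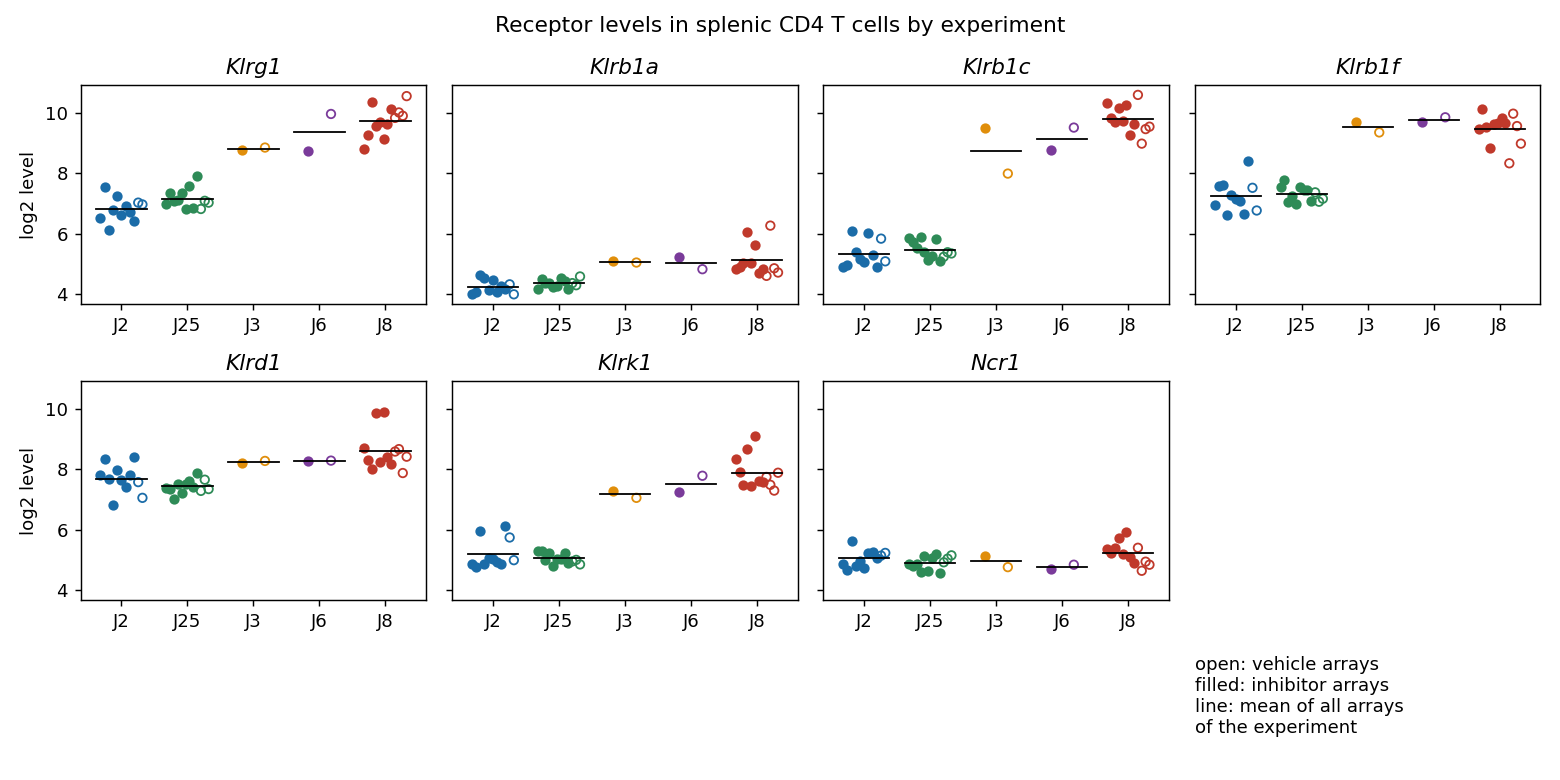
Levels of the 7 receptor genes (log2 intensity, y axis) in T4 arrays by experiment (x axis), with open circles for vehicle arrays, filled circles for inhibitor arrays and a line at the mean. Klrg1, Klrb1c and Klrk1 do not overlap between J2 or J25 and the other experiments, while Ncr1 lies between 4.58 and 5.93 throughout. The share of all genes without such an overlap was not counted.

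Only 5 of the 7 receptors passed the filter on low values in T4, and Klrb1a and Ncr1 did not. Klrb1c and Klrk1 passed it through the experiments in which they were high, so they had to differ and no count over these genes supports a statement about the receptors. A moderated F test for any difference between experiments called 5 of 5, in a comparison that called 42.7% of 11212 genes. The adjusted p was 3.77e-14 for Klrb1c, 1.18e-12 for Klrg1, 1.08e-09 for Klrk1, 2.27e-09 for Klrb1f and 0.00133 for Klrd1 (limma). In a fit without the filter, Klrb1a had adjusted p = 0.00741 and Ncr1 adjusted p = 0.463.

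J25 was set against the other experiments as the design asked, and 4 of 5 receptors were lower, where 7.53% of genes were lower and 11.3% called. Klrb1c fell by 2.57 (SE 0.27, 5.92-fold, adjusted p = 3.25e-07 by limma), Klrg1 by 1.75 (SE 0.22), Klrk1 by 1.67 (SE 0.28) and Klrb1f by 1.17 (SE 0.27, adjusted p = 0.00436), while Klrd1 at -0.67 did not pass (adjusted p = 0.15). These 4 calls held without any 1 array, but Klrb1c and Klrk1 among them had to differ because of the filter. The count is therefore a description. Only vehicle prolonged replicates 2 and 3 and SB00526222 prolonged replicate 2 of J25 share a group with another experiment. With group fitted, these arrays alone set the J25 side of the value, so leaving out another J25 array hardly tests it. The other experiments were themselves split, with J2 near J25, so the value averages over unlike experiments.

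All 10 pairs of experiments were therefore compared, a choice made after the data were seen. Counts of receptors over the pairs are descriptions. Klrb1c and Klrk1 passed the filter only through J3, J6 and J8 and had to differ between these and J2 or J25. J8 exceeded J2 in 5 of 5 receptors, where 46.2% of genes were called, 2679 of 11212 being higher in J8. Klrb1c was higher by 4.1 (SE 0.22, 17.2-fold), Klrg1 by 2.87 (SE 0.19) and Klrk1 by 2.53 (SE 0.23). Klrb1f was higher by 2.3 (SE 0.22) and Klrd1 by 1.19 (SE 0.25, adjusted p = 3.34e-04 by limma). J3 exceeded J2 in 4 (9.85% of genes called, 824 genes higher) and so did J6 (16.4%, 1335 genes higher), with Klrd1 not passing in either. J25 and J2 differed in 0 (1.17%), Klrb1c for example by -0.27 (95% interval -0.91 to 0.37). J3, J6 and J8 differed from each other in 0, with 0% of genes called in each of these 3 pairs. J3 and J6 hold 2 arrays each, so the lack of calls does not show likeness. The receptor median was 0.67 for J8 minus J3, 0.3 for J8 minus J6 and 0.28 for J6 minus J3. In that order, 1321, 1501 and 104 of 11212 genes had an unadjusted p under 0.05 (limma). J25 was lower than J3 and J6 in 4 each (11.7% and 13.2% of genes called, 870 and 997 genes lower). It was lower than J8 in 5 (28.3%, 1828 genes lower). As above, the J25 side of these values rests on the few J25 arrays that share a group with another experiment. Without the 4 T4 arrays standing apart, the calls over all pairs numbered 30 in place of 26, and J25 was lower than the others in 5 receptors in place of 4.

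The 7 T4 arrays of the plain vehicle at the prolonged schedule, fitted alone, gave no call. J25 minus the other experiments was -3.27 for Klrb1c (adjusted p = 0.149 by limma) and -2.18 for Klrg1 (adjusted p = 0.0893), and 0% of genes were called. With 7 arrays over J2, J3, J6, J8 and J25, little was left to measure the spread, so the lack of calls does not show likeness. The other experiments were weighted by their vehicle arrays, so these values are not the same average as in all arrays. Inhibitors against vehicle in T4 called 0 of 5 receptors after prolonged treatment and 0 at 4 h (0% and 0.00892% of genes called). In the prolonged comparison 402 genes had an unadjusted p under 0.05 (limma). The vehicle was the plain one for every compound, SB00526226 included, and the pH 3 vehicle arrays were not part of it. Only SB00513404 was given 28 times, with no vehicle array of that number. Klrg1 had the lowest unadjusted p of the prolonged comparison at -0.31 (SE 0.15, adjusted p = 0.975 by limma).

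Markers of NK cells and of T cell states were read beside these levels. Of the NK markers, Klre1, Klra8 and Gzma remained low in T4 arrays of every experiment, while the mean of the list was not flat. Klre1, an NK receptor gene, had means of 3.55 to 3.93 against 9.13 in NK arrays, the Ly49 gene Klra8 4.76 to 5.05 against 12.14, and the granzyme gene Gzma 4.92 to 5.41 against 11.7. The mean of 9 NK markers other than the receptors ran from 6.36 to 7.24 in J2, 6.52 to 6.79 in J25 and 7.06 to 7.87 in J8. Its medians were 6.51 in J2 and 6.69 in J25, and higher in J3 (7.07), J6 (7.09) and J8 (7.35). The list includes Gzmb, lower in J25 as given below, and Il2rb, the receptor chain shared by interleukin-2 and interleukin-15. Il2rb averaged 9.46 in J2, 10.02 in J25 and between 11.68 and 11.75 in J3, J6 and J8.

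The mean of 7 memory or activation genes was 7.76 to 8.5 in J2 and 7.71 to 8.15 in J25, against 9.95 to 10.33 in J3, J6 and J8, and all 7 were lower in J25 than in the others (limma, median -1.3 against -0.01 for all genes). Regulatory T cell markers reached at most 9.07 in J2 and 9.08 in J25, and had medians of 9.96 to 10.11 in the others, and naive markers 12.5 and 12.48 against 11.31 to 11.51. T cell identity genes varied little, with Cd3e means of 12.49 to 12.63 and Cd4 means of 11.92 to 12.37. The 7 memory or activation genes had means of 10.45 to 10.78 in NK arrays, so their level alone does not tell a T cell state from NK cells. The part of T cell states or of NK cells in the receptor levels was not tested. The labels give the same sort marker, CD4+, for all of these arrays.

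**Figure D5:**
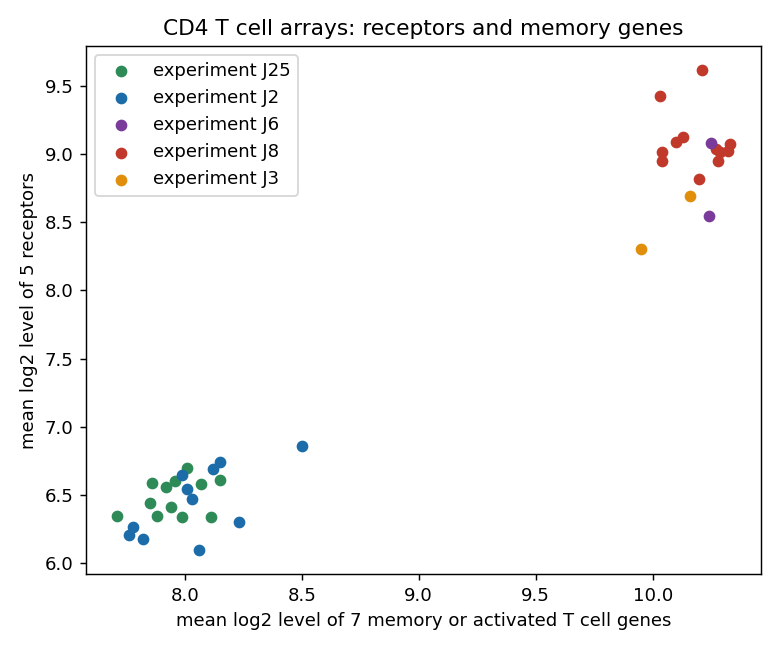
Mean log2 level of Klrg1, Klrb1c, Klrb1f, Klrd1 and Klrk1 (y axis) against the mean of 7 memory or activation genes (x axis) in the 39 T4 arrays, coloured by experiment. J2 and J25 arrays have memory gene means of 7.71 to 8.5 and the arrays of J3, J6 and J8 of 9.95 to 10.33, with no array between. The same genes have means of 10.45 to 10.78 in NK arrays, which are not shown.

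Other NK receptor genes were read in T4 for J25 against the other experiments, J2 among them, where 7.53% of all genes were lower. Both other Klr genes tested were lower in J25 than in the other experiments, Klrc1 (NKG2A, the partner of CD94) at -2.34 (adjusted p = 4.54e-07 by limma) and Klrc2 at -1.2. Klrc1 averaged 4.85 in J2 and 4.83 in J25 against 8.3 to 8.46 in J3, J6 and J8. Of 12 other NK receptors (median -0.56) 6 were lower, among them Slamf7 at -1.79, Cd160 at -1.66 and Tnfrsf9 at -0.97. Of 14 NK transcription factors (median -0.38) 7 were lower and 1 higher: Tbx21, which encodes T-bet, was at -1.66 and Id2 at -0.79, and Bach2, a factor that restrains effector differentiation, at 1.28.

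In the list of the interleukin-15 receptor, its signalling and the interleukin-12 and interleukin-18 receptors, 5 of 9 genes were lower in J25 (list median -0.39). The leading genes, Il12rb2 at -1.73, Il18rap at -1.3 and Il12rb1 at -0.7, encode receptor chains for interleukin-12 and interleukin-18, not for interleukin-15. Il18rap and Cxcr3 are also among the 7 memory or activation genes. Of 11 early maturation genes, 3 were lower, with Xcl1 at -1.78 and Cxcr3 at -1.66, and 2 higher, with Cd55 at 1.21. Late maturation had 2 of 7 lower, Entpd1 at -1.28 and Gzmb at -1.26. The 17 adaptor genes gave 2 lower and 2 higher, with Sh2d1a, the adaptor SAP, at -0.75, the T cell receptor zeta chain gene Cd247 at 0.43 and Ptpn6 at 0.41, and the ligands had 0 of 3 called (Clec2d at -0.22).

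The 5 genes whose T4 levels were most like the mean of the 7 receptors were Klrc1, Xcl1, Cxcr6, Ccr2 and Serpinb6b. Because the arrays fall into separate clusters, only r within an experiment is given. For Klrc1 it was 0.73 in J2 (n = 11), 0.88 in J8 (n = 12) and 0.5 in J25 (n = 12), and for Xcl1 0.45, 0.81 and 0.19, for Cxcr6 0.46, 0.68 and 0.35, for Ccr2 0.78, 0.45 and 0.55, and for Serpinb6b 0.26, 0.86 and 0.67, in the same order.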

How the data were processed

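The samples were mouse spleen and peritoneal cells on 168 arrays. The values the authors deposited are linear intensity, 1 per probe set, made with Affymetrix Power Tools and RMA per the submitters' processing notes. No tool version is given in the sources used here, nor the set of arrays that RMA ran on. Precision is limited by the number of arrays. Here log2 of each deposited value was taken without an offset (lowest value 5.11). Of 24922 probe sets, 21425 carried 1 gene symbol, and a gene (19752 in all) was read from whichever of its probe sets had the highest mean log2.

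Groups came from the labels, with tissue, cell type, compound and schedule. Each cell type was fitted with limma 3.58.1 in R 4.3.3, with group and experiment as fixed effects, moderated two-sided tests, and Benjamini-Hochberg adjustment over all genes tested (threshold 0.05). A gene was tested if above its array's median in at least 3 arrays of the fit, which gave 10957 in NK, 11212 in T4 and 12492 in the vehicle fit. Pooled arms weighted compounds by arrays. The fit was tested on simulated data with known changes. The simulated noise had the same spread for every gene and no experiment effect beyond the changes put in. It therefore checks the code and not the power in these data. A group of 1 array was assumed to vary like the others. Alternatives tried were another normalization, an offset of 16, no filter, array weights, the mean of probe sets, other experiment terms, the animal as a block, single experiments, vehicle arrays only and leaving out each array.

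The members and gene lists were chosen with earlier results of these data known. The receptors were always named. Of each other list, up to 3 called genes with the largest statistic were named, or the leading one where none was called. For likeness, the 3 genes (5 for T4) with the highest r were named. Promoter windows came from RefSeq and were aligned with Biopython 1.88.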

Additional observations from a re-analysis of the deposited data

Results flagged for a closer look

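Within groups of 4 to 10 arrays, 5 of the 49 sets of values looked at had an array far from the others by Dixon's criterion, where chance marks about 1 in 20. In NK cells, Klrd1 was 11.54 in SB00526222 prolonged replicate 1, the only J2 array of its group, against 12.4 for the nearest of the others. It was 11.72 in SB00526226 prolonged replicate 1, also the only J2 array of its group, against 12.45. Klrk1 was 12.07 in SB00526226 prolonged replicate 2 of J8, against 11.72 for the nearest. In T4 cells, Klrd1 was 9.88 in SB00526222 prolonged replicate 5 of J8, against 8.24, and Klrb1a was 6.27 in vehicle prolonged replicate 7 of J8, against 5.05.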

How the results depend on the processing

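Across alternatives, 346 values of single receptors kept their direction and side of the threshold, 10 became called and 8 lost a call, and no called value changed sign. A further 64 receptor differences with an unadjusted p of 0.05 or more were small, and 31 of them changed sign under some alternative without a call. Quantile normalization called 1 receptor at 4 h against vehicle, against 0. Array weights called 1 receptor each for prolonged inhibitors, 4 h, SB00526226 and SB00526228 against vehicle (against 0 each), Klrg1 among them at -0.92 for prolonged inhibitors (adjusted p = 0.0285). Without the arrays standing apart, a setting chosen after the data were seen, 1 receptor each was called for prolonged inhibitors, 4 h and SB00526228. Between schedules, the count of 2 became 1 when the experiment term was dropped and 0 within J2, and SB00526226 at 4 h went from 1 to 0 in J2 alone. The 7 plain vehicle T4 arrays of the prolonged schedule called 0 receptors for J25, for any difference and over the pairs of experiments, which gave 26 calls in all arrays. The cause of these changes was not tested, except that fewer arrays enter the last 2 settings. All genes called between schedules numbered 156, against 236 after quantile normalization, 1032 with array weights, 1170 without the experiment term, 353 with experiment as a random block and 85 in J2 alone. For J25 they numbered 1270, against 3607 with array weights, 2573 without the arrays standing apart, 742 without J3 and J6 and 0 in those vehicle arrays.

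Leaving out 1 array gave 0 to 1 receptors for SB00526228, 0 to 1 for SB00526226 at 4 h, 1 to 2 between schedules, 25 to 27 over the T4 pairs and 20 to 28 for NK against other cell types. The value of 20 arose without an NK vehicle array, when Klrb1a and Ncr1 failed the filter. The other counts did not move. They were 0 for prolonged inhibitors, 4 h, the other compounds, the pairs of compounds and T4 inhibitors. The count was 4 for J25, whose value few of its arrays set, and 5 for any difference between T4 experiments. In the T4 pairs, Klrk1 in J3 against J2 was lost without SB00526222 prolonged replicate 3 (1.72, adjusted p = 0.0554), and Klrd1 in J6 against J2 was gained without SB00526226 replicate 1 (0.89, adjusted p = 0.0485) or SB00526222 replicate 5 (0.85, adjusted p = 0.0486). No paired analysis was possible because within a cell type the labels give no replicate numbers shared between groups. Between cell types, where arrays of 1 animal exist, the animal as a random block left the count for NK against other cell types at 28. The comparisons with vehicle rest on 3 NK vehicle arrays, and J3 and J8 have none.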
